A study of Rattus norvegicus with 12 samples.

Results

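Laminins and nidogens are glycoproteins of the basement membrane, the thin matrix sheet that surrounds each smooth muscle cell, Schwann cell and capillary and underlies the urothelium. The group described here was set as 10 genes by name: the laminin alpha chain genes Lama2, Lama3, Lama4 and Lama5, the beta chain genes Lamb1, Lamb2 and Lamb3, the gamma chain gene Lamc1, and the nidogen genes Nid1 and Nid2. A gene was measured where a probe set of the array carried its symbol alone, and the brightest probe set stood for it. In this way 9 of the 10 genes were measured, among 18166 genes in all, and Lamb1 was not analysed here.

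The samples were urinary bladders of female Sprague Dawley rats aged about 3 months, with 1 expression array each. The 6 sham samples came from rats that had surgery without nerve injury, and the 6 denervated samples from rats whose ganglia supplying the bladder had been frozen on both sides, which were studied 10 days after denervation. The series asked which genes respond to the loss of the bladder's innervation. Values are log2 expression levels made by RMA, a method that corrects background, brings all arrays to 1 distribution and summarises the probes of a probe set. Whether every array had its own animal is not said in the labels. P-values therefore measure only how far these samples spread, and that spread may be technical.

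Laminins are trimers of 1 alpha, 1 beta and 1 gamma chain, and many but not all are cross-shaped. In many laminins, though not in all, the short arms join into a network. The end of the alpha chain binds integrins and dystroglycan on the cell surface. Nidogens bind the laminin gamma chain encoded by Lamc1 and also type IV collagen, and so link both networks. Lama2 is the alpha chain gene known from muscle and Schwann cells, Lama4 and Lama5 from vessels, smooth muscle and epithelia, and Lama3 and Lamb3 from the epithelial laminin that anchors hemidesmosomes.

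Across the whole table the array medians lay between 5.82 and 5.90. In a principal component analysis 58.0% of the variance fell on the leading axis. There denervated replicate 2 (-5.84) sat between the sham arrays (-30.2 to -22.5) and the remaining denervated arrays (25.9 to 42.5). The labels give the tissue as over 95% smooth muscle. The smooth muscle genes Myh11 (sham mean 13.14), Tagln (13.32), Des (13.08) and Actg2 (12.91) were bright on these arrays, and so were the urothelial genes Upk1a (12.72) and Upk2 (12.63), so the samples also held urothelium. In whole tissue, fewer cells of a type and less RNA per cell cannot be told apart.

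Both nidogens and the chain genes Lamc1 and Lama4 rose after denervation, and Lama3 fell. The changes were modest, from a 1.63-fold rise of Nid1 to a fall of Lama3 to 0.80 of its sham level. Changes were tested with limma, p-values were adjusted by Benjamini and Hochberg's method across the 18166 genes, and a gene passed if its adjusted p was under 0.05. By this test 4 of the 9 measured genes were higher, against 11.9% of all genes, and 1 was lower, against 16.9% of all genes. In either direction 5 of 9 passed, against 28.7%. These shares of all genes are also the ones to set beside the counts of listed and marker genes below. The remaining 4 (Lama2, Lama5, Lamb2 and Lamb3) did not pass. An exact rank-sum test per gene, adjusted in the same way, called both nidogens but not Lamc1 (adjusted p = 0.0576), Lama4 (0.0576) or Lama3 (0.158). The median change of the 9 genes was 0.15 on the log2 scale, against -0.04 over all genes. With all 12 arrays, 0 of the 9 genes had groups that did not overlap, against 13.3% of all genes (5.76% with denervated values above and 7.59% with them below).

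**Figure D1:**
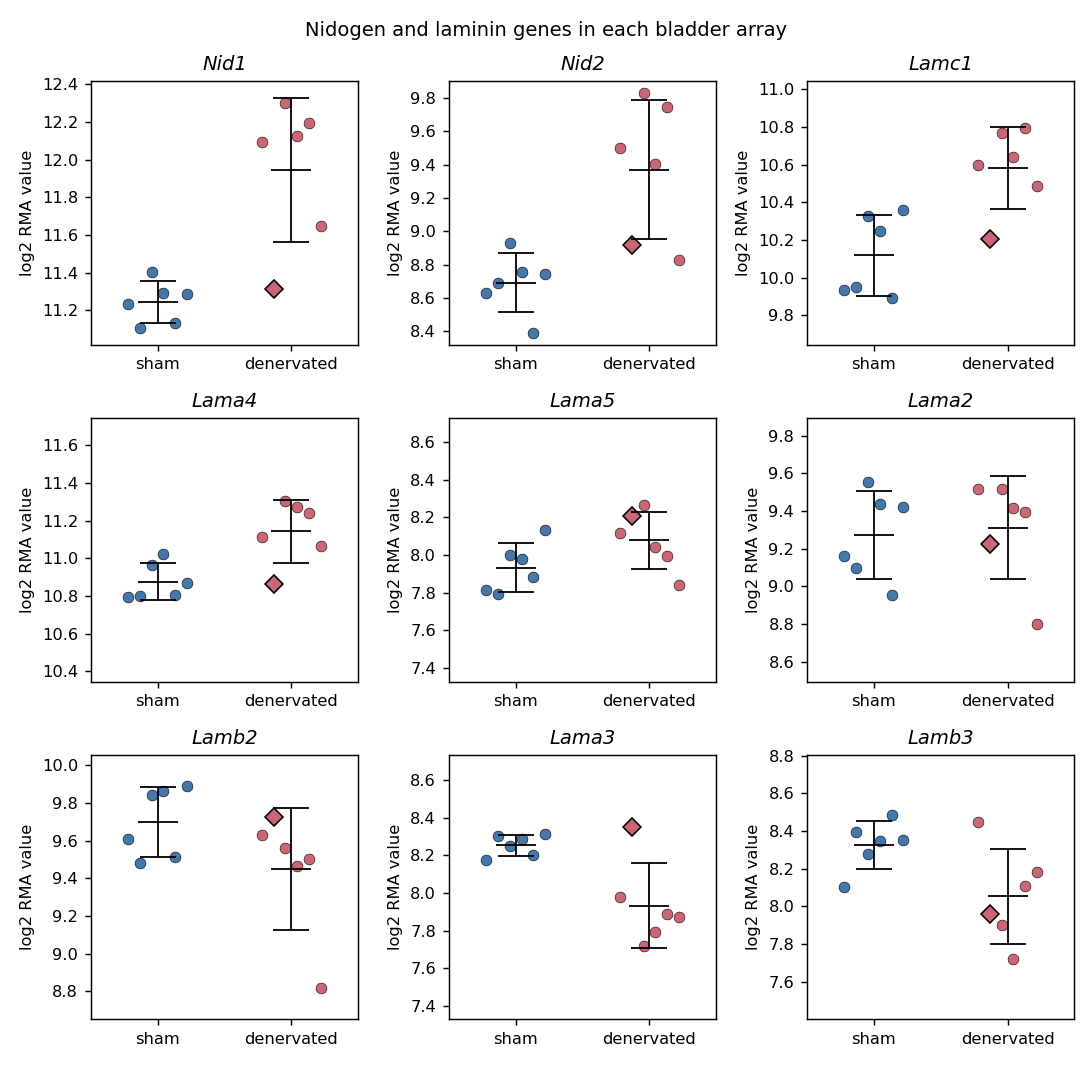
Log2 RMA value (vertical axis, a separate range in each panel) of the 9 measured genes in 6 sham (blue) and 6 denervated (red) arrays; each point is 1 array, the diamond is denervated replicate 2, and bars give the mean and SD. For Nid1, Lamc1, Lama4 and Lama3, 5 of the 6 denervated points lie outside the range of the sham points and the diamond lies within it or, for Lama3, just above it.

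Nid1 encodes nidogen-1, the main linker between laminin and type IV collagen. Its log2 level ran from 11.11 over a median of 11.26 to 11.40 in sham arrays, and from 11.32 over 12.11 to 12.30 in denervated arrays. All denervated arrays but replicate 2 lay above every sham array, and replicate 2 lay within the sham range. The mean was 11.24 ± 0.11 in sham and 11.95 ± 0.38 in denervated arrays (SD, n = 6 each). Nid1 rose by 0.70 ± 0.15 (log2 difference ± SE, adjusted p = 0.00331), and by 0.83 ± 0.11 without denervated replicate 2 (adjusted p = 7.36e-05).

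Nid2 encodes nidogen-2, a related linker known mostly from vessel basement membranes. In sham arrays its log2 level ran from 8.39 over a median of 8.72 to 8.93, and in denervated arrays from 8.83 over 9.45 to 9.83. Denervated replicates 1, 3, 4 and 5 lay above every sham array, while replicates 2 (8.92) and 6 (8.83) lay among them. Group means were 8.69 ± 0.18 and 9.37 ± 0.42 (SD, n = 6 each). The rise was 0.68 ± 0.17, or 1.60-fold (adjusted p = 0.00795), and 0.77 ± 0.16 without denervated replicate 2 (adjusted p = 0.00229). The log2 difference between Nid1 and Nid2 within an array was 2.55 ± 0.11 in sham and 2.58 ± 0.17 in denervated arrays (SD, n = 6 each). That difference moved by 0.02 ± 0.08 (SE), so the test found no unequal change of the nidogens (exact two-sided permutation test, p = 0.788, adjusted over the 5 pairs of genes compared p = 0.788).

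Lamc1 encodes the gamma chain shared by most laminins and carries the nidogen binding site. It ran from 9.89 over a median of 10.10 to 10.36 in sham arrays and from 10.21 over 10.62 to 10.79 in denervated arrays. Denervated replicate 2 lay inside the sham range and the other 5 above it. Means were 10.12 ± 0.22 and 10.58 ± 0.22 (SD, n = 6 each), and the rise was 0.46 ± 0.12, or 1.38-fold (adjusted p = 0.00917). Without denervated replicate 2 it was 0.54 ± 0.10 (adjusted p = 0.00145).

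Lama4 encodes the alpha chain known from endothelial, smooth muscle and nerve basement membranes. Sham values ran from 10.80 over a median of 10.84 to 11.02, and denervated values from 10.86 over 11.18 to 11.30. Again 5 denervated arrays lay above the sham range and replicate 2 inside it. The rise was 0.27 ± 0.08, or 1.20-fold (adjusted p = 0.0235), and 0.32 ± 0.07 without denervated replicate 2 (adjusted p = 0.00251). This was the least secure of the calls: it was lost, with an adjusted p between 0.0511 and 0.0551, when sham replicate 1, 2 or 5 was left out, and likewise for replicates 3, 4 and 5 of the denervated group. A dimmer probe set of Lama4 differed by 0.29, averaging 9.94 in sham and 10.23 in denervated arrays; Lama4 was the only gene of the group with more than 1 probe set.

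For Lamc1 and Lama4, both called higher, the 250 bases before the start of each gene are shown, from RefSeq on build GRCr8. Whether these genes changed alike or share control was not tested. The promoter table used here held 8 of the 10 genes, and not Lamb2 and Nid2. Capitals mark matches, on either strand, to any of 6 motifs: the SP1 box GGGCGG, the CCAAT box, the TATA box TATAAA, the AP-1 site TGANTCA, the TEAD site CATTCC and the CArG box. Overlapping matches run together.
Lamc1, chr13:68051987-68052236, minus strand: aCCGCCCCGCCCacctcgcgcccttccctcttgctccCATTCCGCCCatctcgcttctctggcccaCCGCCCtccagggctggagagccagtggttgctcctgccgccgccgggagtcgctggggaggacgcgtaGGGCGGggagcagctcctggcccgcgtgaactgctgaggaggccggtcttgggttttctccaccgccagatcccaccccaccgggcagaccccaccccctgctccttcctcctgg
Lama4, chr20:43946648-43946897, plus strand: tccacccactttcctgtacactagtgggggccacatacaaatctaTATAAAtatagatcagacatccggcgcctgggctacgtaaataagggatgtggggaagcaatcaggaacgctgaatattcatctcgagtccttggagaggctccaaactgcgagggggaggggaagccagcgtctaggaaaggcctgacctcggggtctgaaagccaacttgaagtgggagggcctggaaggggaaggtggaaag
The windows differed. That of Lamc1 held 5 SP1 boxes and 1 TEAD site and was 71.2% G or C, whereas that of Lama4 held none of these boxes, was 53.2% G or C, and had 1 TATA box, 205 to 200 bases before the start. The Nid1 window held 2 SP1 boxes, 1 CCAAT box and 1 TEAD site. Among all 33469 windows of this length, 30.5% held an SP1 box, 34% a CCAAT box, 12.9% a TATA box and 12.1% a TEAD site. The window of Lama3, the gene that fell, held 3 AP-1 sites, a motif found in 6.34% of windows, and was the only one of the 8 with any. Likewise Lama2, which did not pass, had the only window of the 8 with a CArG box, a motif found in 1.5% of windows. Such matches describe the letters of these windows and not binding.

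Lama3 encodes the alpha chain of the epithelial laminin, which in the bladder lies under the urothelium. Its log2 level was tight in sham arrays, from 8.17 over a median of 8.27 to 8.31, and ran from 7.72 over 7.88 to 8.35 in denervated arrays. Denervated replicate 2 was the highest of all 12 arrays, and the other 5 lay below every sham array. Means were 8.25 ± 0.06 and 7.93 ± 0.22 (SD, n = 6 each). Lama3 fell by 0.32 on the log2 scale (SE 0.09, adjusted p = 0.0186), and by 0.40 without denervated replicate 2 (SE 0.06, adjusted p = 2.03e-04).

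Lamb3 encodes the beta chain that pairs with the Lama3 product. Its values ran from 8.10 over a median of 8.35 to 8.48 in sham and from 7.72 over 8.04 to 8.45 in denervated arrays. The groups overlapped, and here denervated replicate 1, not replicate 2, was the high array (8.45). The difference was -0.27 ± 0.11 (adjusted p = 0.0778) and did not pass, but without denervated replicate 1 it was -0.35 and passed (adjusted p = 0.0155). Unequal change of Lamb3 and Lama3 was not found (0.05 ± 0.13 on the log2 scale, exact permutation p = 0.734, adjusted p = 0.788). Markers of the urothelium were lower as well. Of 16 urothelial markers, 14 fell and 1, the basal keratin Krt14, rose (1.35 ± 0.36, adjusted p = 0.0135), and their mean level ran from 10.31 to 10.49 in sham and from 9.63 to 9.96 in denervated arrays. The part of urothelial RNA in the values of Lama3 and Lamb3 was not tested. In denervated replicates 1 to 6 the urothelial mean stood at -0.41, -0.45, -0.74, -0.69, -0.42 and -0.44 relative to the sham mean. In the same order Lama3 stood at -0.28, 0.10, -0.53, -0.46, -0.37 and -0.38. Lamb3 stood at 0.12, -0.37, -0.43, -0.61, -0.22 and -0.14.

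Of the genes that did not pass, Lama2, the alpha chain gene of muscle and Schwann cell basement membranes, had nearly equal means (9.27 ± 0.23 in sham, 9.31 ± 0.27 in denervated arrays, SD, n = 6 each). Its values ran from 8.96 over 9.29 to 9.55 in sham and from 8.80 over 9.41 to 9.52 in denervated arrays. The groups overlapped, and only denervated replicate 6 lay outside the sham range, below it. The difference was 0.04, with a 95% confidence interval from -0.25 to 0.33 (adjusted p = 0.859). Markers of Schwann cells, which make this chain, were lower: 7 of 12 fell and 1 rose, and their mean level was 7.95 to 8.09 in sham and 7.24 to 7.73 in denervated arrays. The change of Lama2 relative to these markers was not tested.

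Lama5 encodes an alpha chain of epithelial, endothelial and smooth muscle basement membranes. Sham values ran from 7.79 over 7.93 to 8.13 and denervated values from 7.84 over 8.08 to 8.26, with 2 denervated arrays above the sham range. The difference of 0.15 ± 0.08 did not pass (adjusted p = 0.218). Lamb2, the beta chain gene known from mature muscle, vessel and synaptic basement membranes, ran from 9.48 over 9.72 to 9.89 in sham and from 8.82 over 9.53 to 9.73 in denervated arrays. Its difference of -0.25 ± 0.14 did not pass either (adjusted p = 0.208), and denervated replicate 6 lay far below the other denervated arrays.

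The alpha chain genes were also compared with each other within arrays, which asks whether they changed unequally. Lama4 minus Lama2 moved by 0.23 ± 0.12 on the log2 scale (exact two-sided permutation test, p = 0.0736, adjusted p = 0.368 over 5 pairs). Lama5 minus Lama2 moved by 0.10 ± 0.11 (exact permutation, p = 0.331, adjusted p = 0.552) and Lama4 minus Lama5 by 0.12 ± 0.10 (exact permutation, p = 0.305, adjusted p = 0.552). These values rested in part on single arrays. Lama4 minus Lama2 was 0.14 without denervated replicate 6. Lama5 minus Lama2 was 0.05 without denervated replicate 6, 0.06 without denervated replicate 2 or sham replicate 3, and 0.16 without sham replicate 5. Lama4 minus Lama5 was 0.20 without denervated replicate 2 (exact permutation p = 0.0152, adjusted p = 0.0758), 0.08 without sham replicate 6 and 0.06 after a further quantile normalization. None of the 5 pairs passed, with 0.00216 as the smallest unadjusted p this design allows, so unequal change of Lama4 against Lama2 or Lama5 was not shown. Lama4 against Lama3 was not tested. A pair picked after its values were seen, Lamc1 minus Lamb2, is given without a test: it was 0.42 ± 0.06 in sham and 1.13 ± 0.39 in denervated arrays (SD, n = 6 each). In the sham arrays it stayed between 0.33 and 0.49, denervated replicate 2 lay at 0.48, and the other denervated arrays reached 0.97 to 1.67.

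**Figure D2:**
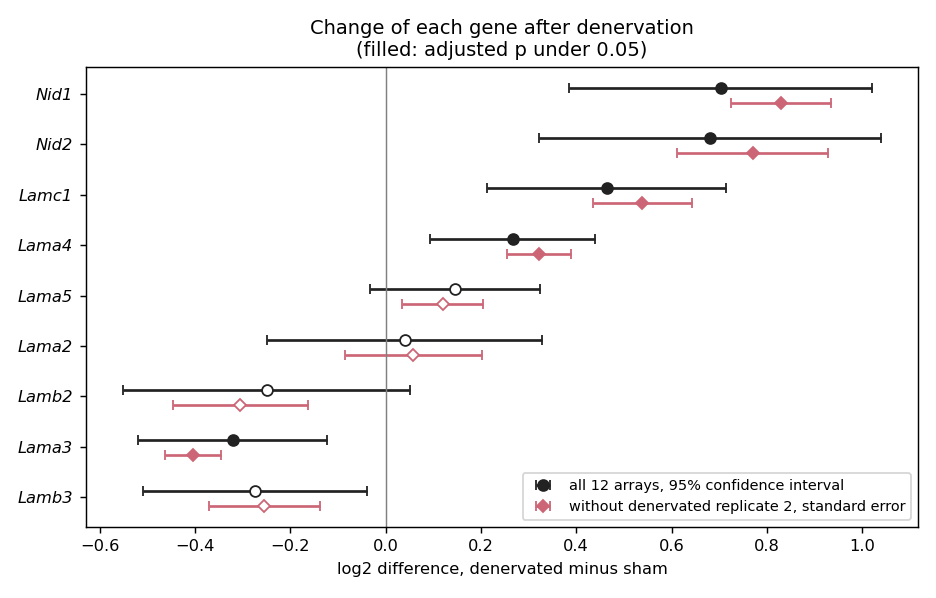
Log2 difference, denervated minus sham (horizontal axis), for each gene: black circles use all 12 arrays with 95% confidence intervals, red diamonds leave out denervated replicate 2 and carry standard errors; filled symbols have an adjusted p under 0.05. The same 5 genes are filled in both fits, and the intervals of Lama2, Lama5 and Lamb2 include 0.

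Leaving out denervated replicate 2 left the number of calls at 4 higher and 1 lower, while of all genes 14.4% were higher and 20.2% lower, 34.5% in all. Without that array 4 of the 9 genes had groups that did not overlap, 3 above (Nid1, Lamc1 and Lama4), against 10.2% of all genes, and 1 below (Lama3), against 13.4%. In either direction the share of all genes was 23.6%. The sham arrays varied together as well. Sham replicates 1, 2 and 5 held the 3 lowest sham values in 7 of the 9 genes, all but Lama3 and Lamb3, a split seen in 6.88% of all genes and noticed after the values were seen. In Lamc1, for instance, these lay at 9.93, 9.95 and 9.89 and the other 3 at 10.33, 10.25 and 10.36.

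Denervated arrays differed most in the nidogens. Relative to the sham mean, Nid1 stood at 0.85, 0.07, 1.06, 0.88, 0.95 and 0.41 and Nid2 at 0.81, 0.23, 1.14, 0.71, 1.05 and 0.14 in denervated replicates 1 to 6. In both genes replicates 2 and 6 were the lowest. The mean over 11 fibroblast markers was also lowest in these replicates, with -0.01 in replicate 2, 0.27 in replicate 6 and 0.67 to 0.94 in the others; 7 of these markers rose and 0 fell, and their mean level was 10.60 to 10.94 in sham and 10.76 to 11.71 in denervated arrays. Endothelial markers, of which 6 of 12 rose and 0 fell, had mean levels of 7.80 to 7.87 in sham and 8.04 to 8.30 in denervated arrays, with 0.19 above the sham mean in replicate 2 and 0.34 to 0.45 in the others. What part these cells had in the rises of the nidogens, Lamc1 and Lama4 was not tested.

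**Figure D3:**
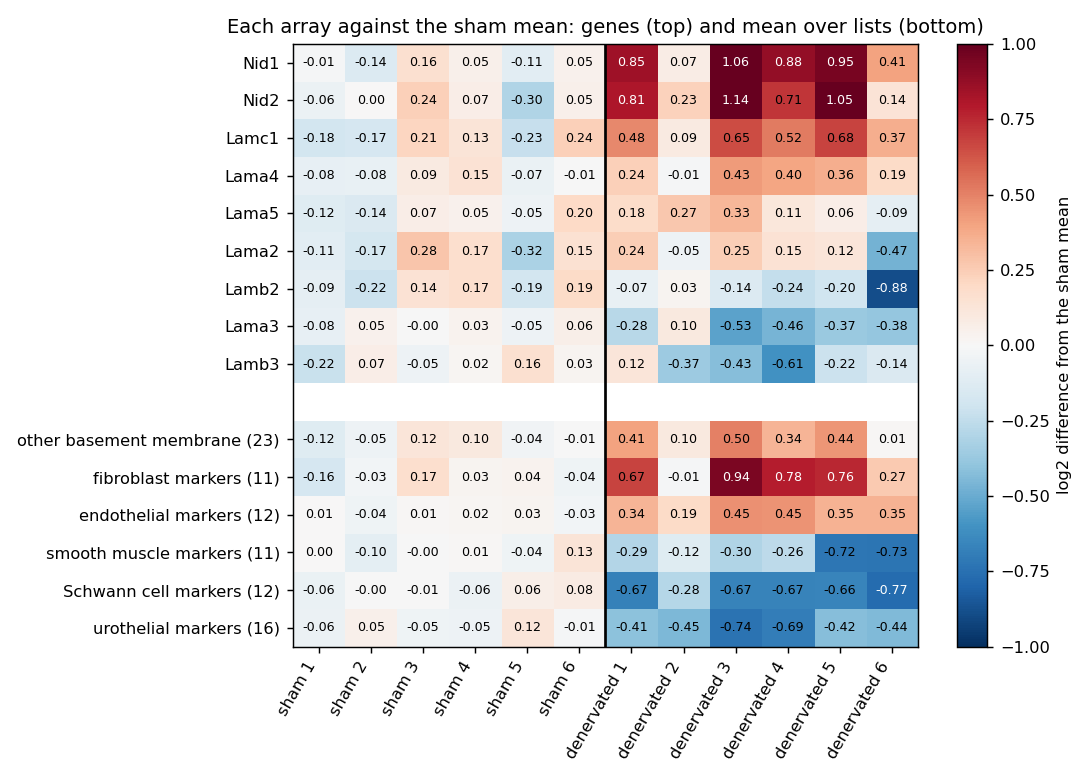
Log2 difference of each of the 12 arrays (columns) from the sham mean for the 9 genes (upper rows) and for the mean over lists of related genes and cell type markers (lower rows, number of measured genes in brackets); red is higher, blue lower. The columns of denervated replicates 2 and 6 are paler than the other denervated columns in the Nid1 and Nid2 rows, and replicate 6 is darkest blue in the Lamb2 row at -0.88.

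By likeness of profile, measured as the root mean square difference of log2 values over the 12 arrays after centring each gene on its own mean, the nearest genes to Nid1 were Grb10 (0.08), an adaptor of receptor kinases, Efemp2 (0.09), an elastic fibre protein, and Slc38a10 (0.09). Nearest to Nid2 were P3h3 (0.11) and Crtap (0.11), which act in collagen hydroxylation, and the protease gene Adamts7 (0.12). Lamc1 lay nearest to Sparc (0.09), a matrix protein that binds collagen, Rtkn2 (0.10) and the fibrillar collagen gene Col3a1 (0.10). For Lama4 the nearest were Ptk2 (0.06), which encodes focal adhesion kinase, Sar1a (0.06), of vesicle export from the endoplasmic reticulum, and Ube2s (0.06). Lama3 was nearest to Herc1 (0.05), Itgb4 (0.06), the beta subunit of the hemidesmosome integrin, and Marchf6 (0.07).

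Other laminin chain genes measured were dim. Lama1, the alpha chain gene of embryonic basement membranes, averaged 5.72 in sham and 5.57 in denervated arrays, and its difference of -0.15 ± 0.08 did not pass (adjusted p = 0.160), though it did without denervated replicate 2 (-0.20, adjusted p = 0.0198). Lamc3, another gamma chain gene, averaged 6.07 and 5.99 (difference -0.09 ± 0.08, adjusted p = 0.439).

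Of 23 other measured basement membrane genes, 9 rose, 5 fell and 9 did not pass, with a median change of 0.14. Of all genes, 11.9% rose and 16.9% fell, so the part of this list that fell was near the share of all genes. The type IV collagens, the network that nidogens tie to laminin, were split. Col4a1 rose from 8.64 ± 0.15 to 10.07 ± 0.49 (SD, n = 6 each), a change of 1.43 ± 0.19 or 2.70-fold (adjusted p = 2.24e-04), and its partner Col4a2 by 1.27 ± 0.18 (adjusted p = 3.22e-04); for both, every denervated value lay above every sham value. Col4a5 fell by 0.37 (SE 0.13, adjusted p = 0.0462), while Col4a3 (0.05) and Col4a4 (-0.21) did not pass. Col18a1, a vessel and epithelial basement membrane collagen, rose from a mean of 6.72 ± 0.18 to 8.18 ± 0.47 (SD, n = 6 each, adjusted p = 1.88e-04). The fibulin gene Fbln2, whose product binds laminin and nidogen, rose by 1.99 ± 0.34 (adjusted p = 9.61e-04), hemicentin Hmcn1 by 1.45 ± 0.32 (adjusted p = 0.00437) and Frem1 by 0.75 ± 0.18 (adjusted p = 0.00797). Smoc1 fell by 0.86, Frem2 by 0.61, and the laminin-related netrins Ntn1 by 0.52 and Ntn4 by 0.32 (adjusted p from 4.26e-04 to 0.0273 for these 4). Agrn, the laminin-binding proteoglycan of the synapse, did not pass (0.12 ± 0.09, adjusted p = 0.377). Among 13 measured genes of collagen modification and cross-linking, 11 rose and 1 fell, with a median change of 0.81. Of the lysyl oxidases, which cross-link collagen, Lox rose by 2.03, Loxl1 by 1.91 and Loxl2 by 1.66. Also higher were the lysyl hydroxylase gene Plod2, by 1.52, and Pxdn, the peroxidase that cross-links type IV collagen, by 1.19. The prolyl hydroxylase P3h2, which acts on type IV collagen, fell by 1.11 (adjusted p of these 6 from 1.69e-04 to 0.00226).

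Laminin binds cells through integrins, dystroglycan and other surface proteins. All 15 receptor genes listed were measured, and 2 rose, 7 fell and 6 did not pass, with a median change of -0.09. Of all genes, 11.9% rose and 16.9% fell, so the part of the receptors that rose was near the share of all genes. Itga7, the laminin-binding integrin subunit of muscle, ran from 7.81 to 8.00 in sham and from 6.75 to 7.48 in denervated arrays, without overlap, and fell by 0.77 (SE 0.10, adjusted p = 1.77e-04). Its partner subunit Itgb1 rose by 0.29 ± 0.08 (adjusted p = 0.0133), and Itga2, a collagen and laminin receptor subunit, by 0.55 ± 0.18 (adjusted p = 0.0335). Itga3, Itgb4 and Bcam, receptors for Lama3- and Lama5-containing laminins, fell by 0.29, 0.43 and 0.42 (adjusted p from 6.81e-04 to 0.00305), and so did Mcam, a Lama4 receptor, by 0.70 (adjusted p = 0.00152). The syndecans Sdc1 and Sdc4 fell by 0.24 and 0.47 (adjusted p = 0.00494 and 0.00373). Itga6 (-0.06), Itga1 (-0.02), Rpsa (-0.05), Sdc2 (-0.09), Cd151 (0.22) and dystroglycan itself, Dag1 (0.00 ± 0.07, adjusted p = 0.974), did not pass. Without denervated replicate 2 Cd151 rose too (0.29, adjusted p = 0.0487). Urothelial markers (14 of 16 lower, median change -0.53) and smooth muscle markers (7 of 11 lower, median change -0.51) were lower beside these receptors, and their part in the receptor values was not tested.

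Dystroglycan is tied to the muscle cytoskeleton by dystrophin and stabilised by sarcoglycans, and some genes of that complex fell while others did not pass. Of 20 measured genes of the dystrophin complex and of dystroglycan glycosylation, 0 rose, 8 fell and 12 did not pass (median change -0.13). Without denervated replicate 2, 2 rose (Gmppb and Pomt1) and 9 fell, Utrn among them. Of all genes, 11.9% rose and 16.9% fell with all arrays, and 14.4% rose and 20.2% fell without that array. Dystrophin, Dmd, averaged 10.33 ± 0.10 in sham and 9.20 ± 0.58 in denervated arrays (SD, n = 6 each), without overlap, and fell by 1.13 (SE 0.21, adjusted p = 0.00182). In denervated replicate 2 it stood at 10.17, against 8.56 to 9.40 in the other 5. Sarcospan, Sspn, fell by 1.02 and the sarcoglycans Sgca, Sgcd and Sgcb by 0.89, 0.78 and 0.67 (adjusted p from 0.00266 to 0.0102), and the glycosylation genes Large2, Pomt2 and B3galnt2 by 0.28, 0.28 and 0.26 (adjusted p from 0.0165 to 0.0382). Utrn, the dystrophin relative, did not pass with all arrays (-0.17 ± 0.07, adjusted p = 0.109). Sntb1 (-0.06), Sntb2 (-0.04), Dtnb (0.24) and Sgcz (0.03), also of the complex, did not pass either. Smooth muscle markers moved with the genes that fell: 7 of 11 fell and 1 rose, and their mean level ran from 11.05 to 11.28 in sham and from 10.42 to 11.02 in denervated arrays. The part of smooth muscle RNA in these falls was not tested.

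**Figure D4:**
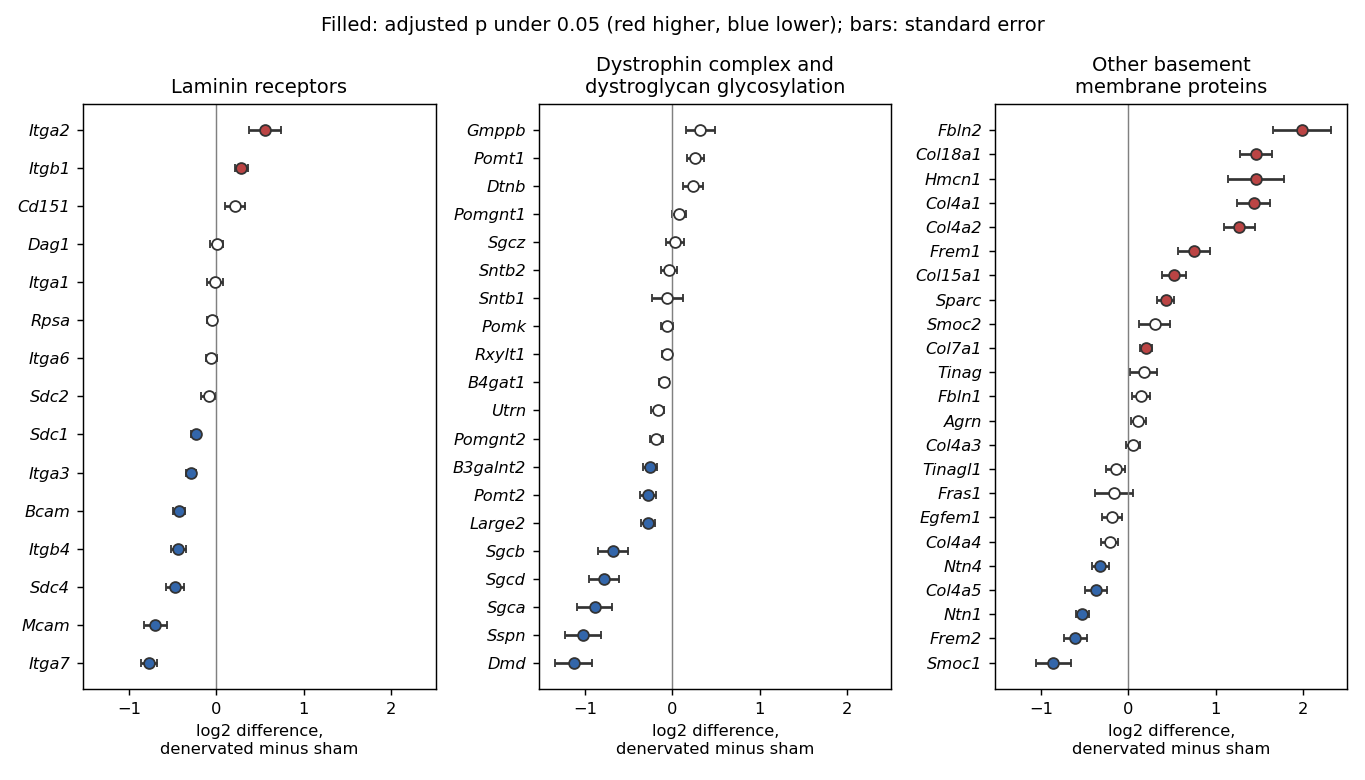
Log2 difference, denervated minus sham, with standard errors, for genes of laminin receptors, of the dystrophin complex and dystroglycan glycosylation, and of other basement membrane proteins; red is higher and blue lower at an adjusted p under 0.05, and white did not pass. No gene of the middle panel is red, and the right panel has genes of both colours, from Smoc1 at -0.86 to Fbln2 at 1.99.

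Of 16 measured genes of proteases that can cleave laminin or nidogen, 10 rose and 0 fell, with a median change of 0.84. They included the macrophage elastase Mmp12 (2.68 ± 0.43), the gelatinases Mmp9 (1.72 ± 0.22) and Mmp2 (0.91 ± 0.13), the cysteine protease Ctss (1.10 ± 0.14), Mmp19 (1.05 ± 0.14) and the membrane-bound Mmp14 (0.95 ± 0.14), with adjusted p from 1.88e-04 to 6.66e-04. Macrophage markers moved with them, 11 of 12 rising, with mean levels of 8.41 to 8.66 in sham and 9.45 to 10.25 in denervated arrays; their part in the protease values was not tested. Of 6 measured hemidesmosome genes, Itgb4 and Col17a1 (-0.29 ± 0.10, adjusted p = 0.0431) fell, Krt14 rose, and Itga6, Plec (-0.07) and Cd151 did not pass. Of all genes, 11.9% rose and 16.9% fell, the shares to set beside the counts of the protease and hemidesmosome lists.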

How the data were processed

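Expression was measured on 12 arrays of rat bladder, 6 sham and 6 denervated. The values are the log2 RMA values that the authors deposited for 36685 probe sets, made in Affymetrix Expression Console 1.4.1.46 per the submitters' processing notes. For build and annotation: not given in the sources used here. The values were tested as deposited, carry no detection call, and are limited in precision by the number of arrays. Of 19086 probe sets named by the platform's gene table, 575 carry several genes and were left out and 18511 carry 1; 18394 of these matched RefSeq by gene identifier, and 0 symbols changed. The probe set with the highest mean stood for each of the 291 genes with several.

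Groups came from the titles. Denervated and sham arrays were compared with limma 3.58.1 in R 4.3.3 (lmFit, eBayes, two-sided, Benjamini-Hochberg over 18166 genes, threshold 0.05). Differences between 2 genes within an array were compared by an exact permutation test over 924 splits; a pair with Lamb1 was not run. The scripts were tested on simulated data. The genes of the group and all lists were chosen with earlier results of these data known. Named were all measured genes of the group, the other laminin chains, all receptors and type IV collagens measured, up to 6 called genes with the largest change of each other list (marker lists are given by counts), and the 3 nearest profiles of each called gene; any further gene was picked with its values in view. The alternatives tried were an exact rank-sum test, array weights, trended and robust variances, quantile normalization again, median centring, a brightness filter, averaging of probe sets, a replicate block, and omission of single arrays.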

Additional observations from a re-analysis of the deposited data

Results flagged for a closer look

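Among 28 sets of 6 values examined (9 genes and 5 pairs of genes, each in both groups), 1 held an array far from the others. Chance gives about 1 in 20, so 1 flag among 28 sets is no more than chance would give. Lamb2 stood at 8.82 in denervated replicate 6, while the rest of that group ran from 9.46 to 9.73, a gap of 0.711 of the group's range (critical value 0.625). In the same array Lama2 was lowest of all 12 (8.80), and the mean over smooth muscle markers lay 0.73 below the sham mean. In denervated replicate 5 the marker mean lay 0.72 below the sham mean, with Lamb2 at 9.50 and Lama2 at 9.39. Relative to the sham mean it stood between -0.30 and -0.12 in denervated replicates 1 to 4. The part of smooth muscle RNA in the Lamb2 and Lama2 values was not tested. Without denervated replicate 6 the difference of Lamb2 was -0.12 and did not pass (adjusted p = 0.354).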

How the results depend on the processing

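The labels do not say whether same-numbered arrays were paired. Their deviations correlated at -0.11 to 0.10 over genes, which cannot show whether the design paired them. With the number as a replicate block the calls were again 4 higher and 1 lower (Nid1 adjusted p = 0.00469, Lama4 0.0247). Over all genes 1984 were then higher and 2476 lower, against 2153 and 3063. The exact rank-sum test called 2 genes of the group higher and 0 lower, losing Lamc1 and Lama4 (adjusted p = 0.0576 each) and Lama3 (0.158). Keeping only genes above the median gene called 2 lower, as Lamb3 passed (adjusted p = 0.0493). Leaving out each array gave 3 to 4 higher and 1 to 2 lower; the second lower gene was Lamb3, without denervated replicate 1 (adjusted p = 0.0155). Nid1 and Nid2 passed in all 20 alternatives, with differences of 0.63 to 0.83 and 0.59 to 0.79. Lama2 changed sign without sham replicate 5 (-0.023) and denervated replicates 1 (-0.00044) and 3 (-0.00085), and ranged from -0.023 to 0.142 over the arrays left out. Nid1 minus Nid2 (-0.026 to 0.061) and Lamb3 minus Lama3 (-0.022 to 0.15) changed sign in the same way. None of the 5 pairs passed in any of the 15 alternatives run for pairs. For the replicate block, signs of the 6 differences between same-numbered arrays were flipped. With so few differences, 1 pair alone could not pass after adjustment, so that alternative decides nothing about the pairs. After median centring the median change of all genes was -0.06, against -0.04 as deposited. The standard errors, from 0.08 to 0.17 with 6 arrays a group, limit what could be detected.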
